A study of Mus musculus with 4 samples.

Results

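The H2 region of mouse chromosome 17, the major histocompatibility complex, was examined for changes in DNA copy number in 4 liver tumours, by hybridising tumour and reference DNA to the same array. The set held every genomic probe whose name begins with H2- on chromosome 17, and the other named probes that start between 33.8 and 38.0 Mb on mm9, without olfactory and vomeronasal receptor names. It came to 232 probes with 123 names, out of 170305 probes and 20749 names on the array. The other 6316 probes of chromosome 17 were the comparison. Membership depended on name and position, not on any ratio.

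Each tumour came from its own untreated mouse on the C57BL/6J background in which Trp53, which encodes the p53 tumour suppressor, had been lost in the liver. How the loss was driven is not given in the sources used here. Tumour DNA carried Cy5. The Cy3 reference was a pool of DNA from 3 littermates of the same sex, which the sample labels and the design text call spleen and the labelling protocol calls liver. Both channels carry the labels Trp53-/- and male, and whether the reference DNA had lost Trp53 was not tested. A ratio that all 4 tumours share may lie in the tumours or in the reference. With tumour DNA always in Cy5, it may also lie in the dye or the probe. These cannot be told apart here. The tumours are numbered 1 to 4, and tumours 1 and 4 lay on 1 slide.

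The array of tumour 1 did not match its label: its probes averaged 0.81 on chromosome X and -3.03 on chromosome Y, on the log2 scale of tumour over reference. In tumours 2, 3 and 4 chromosome X averaged 0.18, 0.04 and -0.05, and chromosome Y -1.12, -0.53 and -0.43. Some results moved by over 1.5 times without the library labelled tumour 1. Where these are class differences from the rest of the chromosome, limma counts or means of the 32 named genes, values with and without it are given. Differences between 2 classes and the values of other single genes are given with all 4 tumours only.

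The major histocompatibility complex is a dense stretch of immune genes. Class I molecules present peptides from inside the cell to CD8+ T cells, and class II molecules present peptides from outside the cell to CD4+ T cells. The class III stretch between them encodes complement components, cytokines, heat shock proteins and many genes with no part in antigen presentation. A log2 ratio near 0 means that the tumour and the reference gave the same relative signal. These are DNA measurements and say nothing of how much RNA or protein a gene made.

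Class I was covered by 8 probes with 7 names, all of them non-classical or uncharacterised class I genes. None of 3 classical class I genes looked for (H2-K1 and H2-D1 among them) carried a probe name. Class II was covered by 5 probes, 1 each for H2-DMa, H2-DMb1, H2-Aa, H2-Ab1 and H2-Eb2. Class III, taken by position between the outermost names of a class III list, held 61 probes with 37 names, and the other genes of the region 158 probes with 74 names. Of the 37 names, 26 stand on the class III list and the others lie among them. Neighbouring probes of the set stood 9730 bases apart in the median, and the longest gap was 174177 bases. All 232 probes were well above background in both channels on all 4 arrays and none was saturated in the tumour channel on any array.

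The probes on which the results turn are printed as they stand on the array, 5′ to 3′, with G and C in capitals, since the share of these bases moved with the ratios on 3 of the 4 arrays. The first 6 are those whose ratio left the range of the rest of the chromosome in 3 tumours.
Notch4: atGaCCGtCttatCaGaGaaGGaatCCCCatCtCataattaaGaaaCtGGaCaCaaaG
Rdbp: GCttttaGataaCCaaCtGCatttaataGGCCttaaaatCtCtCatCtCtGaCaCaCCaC
BC139177: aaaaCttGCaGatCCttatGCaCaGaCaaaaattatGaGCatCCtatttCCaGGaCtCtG
C2: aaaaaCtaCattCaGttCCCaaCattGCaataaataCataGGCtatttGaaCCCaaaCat
Bat5: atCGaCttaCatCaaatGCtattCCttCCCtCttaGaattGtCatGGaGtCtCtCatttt
Gnal1: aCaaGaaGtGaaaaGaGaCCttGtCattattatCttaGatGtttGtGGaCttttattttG
The next pair shows the second Bat5 probe and the middle C2 probe, which stayed near 0.
Bat5: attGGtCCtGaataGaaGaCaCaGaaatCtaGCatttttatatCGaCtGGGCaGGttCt
C2: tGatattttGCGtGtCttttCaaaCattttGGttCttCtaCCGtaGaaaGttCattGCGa
The last 4 show class II probes with ratios of opposite sign and the class I genes with the lowest and the highest mean over all 4 tumours.
H2-Ab1: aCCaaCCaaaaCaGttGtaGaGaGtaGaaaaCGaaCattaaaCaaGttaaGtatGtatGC
H2-Eb2: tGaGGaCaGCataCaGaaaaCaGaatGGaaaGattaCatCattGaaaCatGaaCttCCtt
H2-M10.1: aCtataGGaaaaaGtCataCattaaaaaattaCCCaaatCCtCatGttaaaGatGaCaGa
H2-Bl: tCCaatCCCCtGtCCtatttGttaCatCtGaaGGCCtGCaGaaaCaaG
On mm9 the 6 leading probes lie at chr17:34707681-34707738 (Notch4), chr17:34988217-34988276 (Rdbp), chr17:37333662-37333721 (BC139177), chr17:35002748-35002807 (C2), chr17:35226955-35227014 (Bat5) and chr17:36121368-36121427 (Gnal1). The second Bat5 probe lies at chr17:35234808-35234866 and the middle C2 probe at chr17:35009570-35009629. H2-Ab1 was measured at chr17:34402755-34402814, H2-Eb2 at chr17:34473505-34473564, H2-M10.1 at chr17:36459978-36460037 and H2-Bl at chr17:36217544-36217591. The files give no strand. Names are those of the array design; in a RefSeq table of another build Bat5 is now Abhd16a, Rdbp is Nelfe and Gnal1 is Gnl1, and BC139177 had no match there. G and C made up 30.0% of the Gnal1 probe, 31.7% of the low C2 probe, 38.3% of the Rdbp and BC139177 probes, 28.3% of H2-M10.1 and 45.8% of H2-Bl. The longest stretch that any probe of the set shared with another probe of the array was 19 bases.

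No segment gained or lost as a block was called over the H2 region in any of the 4 tumours. Segments were found in each tumour by penalised least squares, and were called when at least 5 probes had a mean of at least 0.2 or at most -0.2. In tumour 1 all 232 probes lay in a segment of 898 probes with a mean of 0.12, from chr17:27977951-37333721. In tumour 4 they lay in a segment of 803 probes with a mean of 0.01, chr17:29199229-37719525. Tumour 2 had no break on the chromosome, whose mean was -0.02. Tumour 3 broke only around 1 probe in the set, the low Bat5 probe, with a mean of -0.05 over the 588 probes before it and -0.04 over the 218 probes after it. A lower and a higher penalty gave no called segment either.

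**Figure D1:**
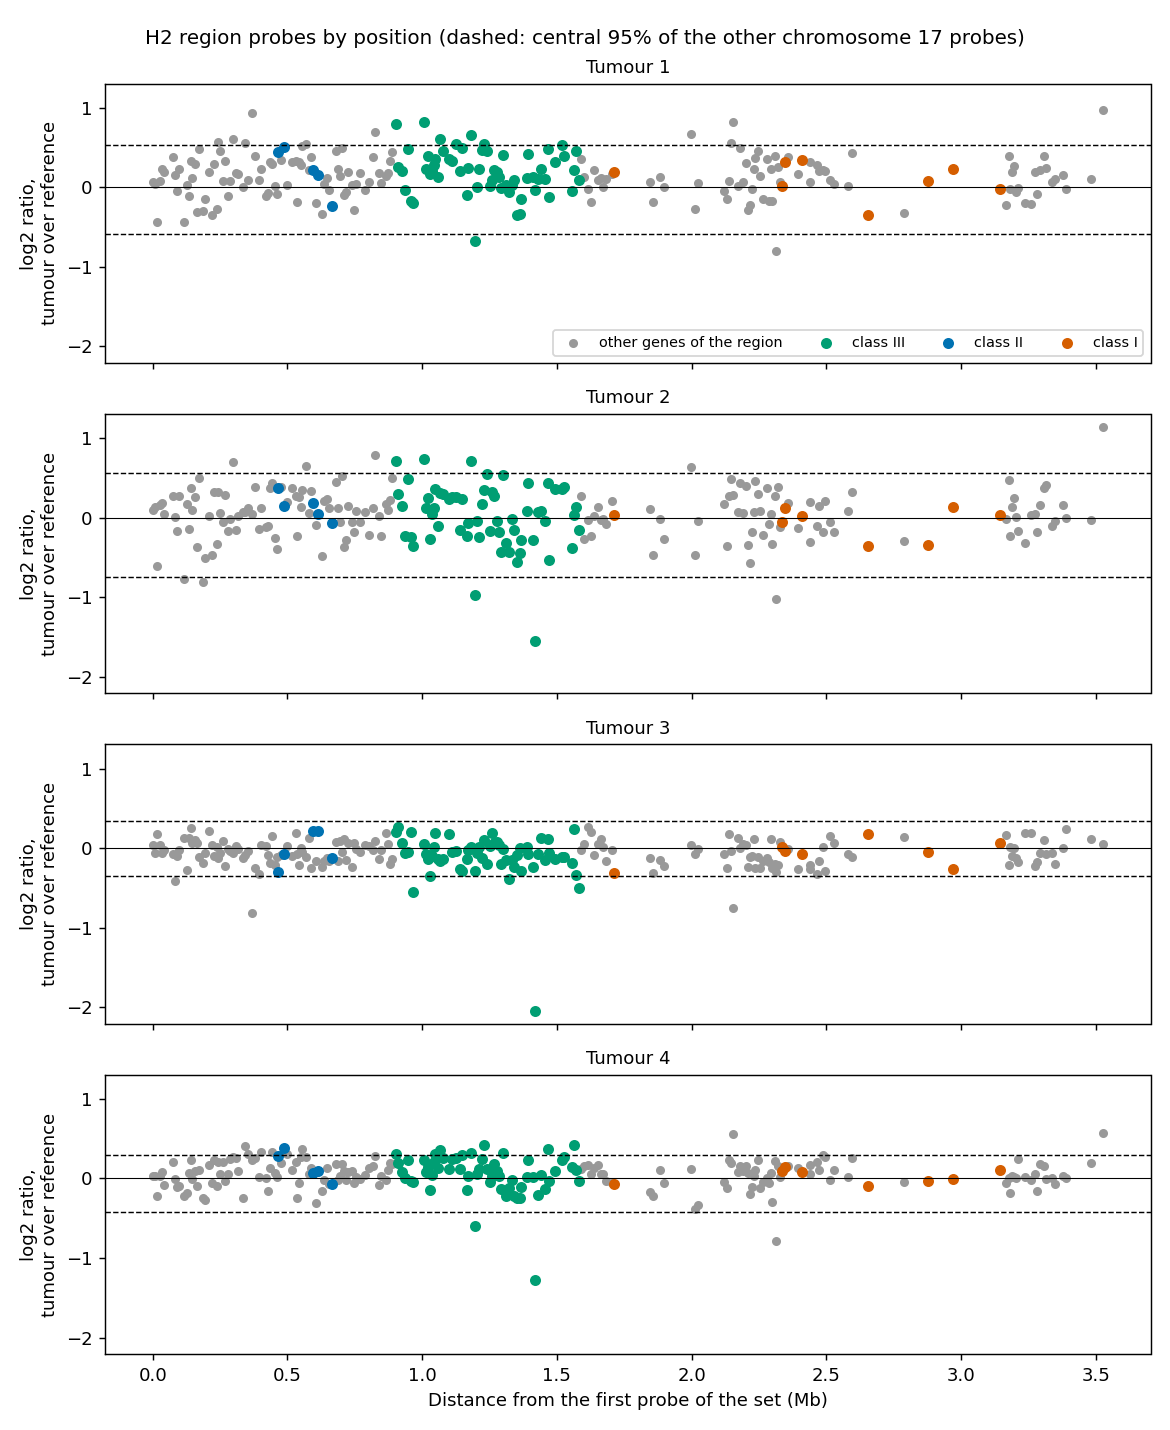
Log2 ratio of each of the 232 H2 region probes against its distance in Mb from the first probe, 1 panel per tumour, coloured by class. Dashed lines mark the central 95% of the other chromosome 17 probes. Most points lie between the lines in every tumour, the Bat5 probe falls to -1.55, -2.05 and -1.27 in tumours 2, 3 and 4, and no point of tumour 3 lies above its upper line.

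As a whole the set stood slightly above the rest of the chromosome in 3 tumours and below it in 1. The mean of the 232 probes minus the mean of the rest came to 0.13, 0.06, -0.07 and 0.07 in tumours 1 to 4. That is 0.05 ± 0.08 (SD, n = 4), with a two-sided exact sign-flip p of 0.375. The value was 0.02 without tumour 1 and 0.09 without tumour 3. Over 4 tumours this test cannot go below 0.125, so it cannot reach 0.05 for any class. Tumours 1 and 4, from 1 slide, were both positive, and tumour 3 alone was negative.

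Class II probes stood highest. The class II mean minus the rest of the chromosome was 0.20, 0.16, -0.01 and 0.17 in tumours 1 to 4. This gave 0.13 ± 0.09 (SD, n = 4, exact sign-flip p = 0.25), and 3 of 4 tumours were above 0. Class III reached 0.19 in tumour 1 but -0.10 in tumour 3, with 0.04 in tumour 2 and 0.08 in tumour 4. The low Bat5 probe, 1 of the 61, lowers these values in tumours 2, 3 and 4. It measured -1.55 in tumour 2 and -2.05 in tumour 3. With the median over probes in place of the mean, the class III difference averaged 0.06. Its mean was 0.05 ± 0.12 (SD, n = 4, exact p = 0.5), and it came to 0.006 without tumour 1 and 0.10 without tumour 3.

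Class I probes did not stand apart. Tumours 1 to 4 gave 0.08, -0.03, -0.05 and 0.05 for their mean minus the rest. The average was 0.01 ± 0.06 (SD, n = 4, exact p = 0.75), and it was -0.01 without tumour 1, 0.02 without tumour 2, 0.03 without tumour 3 and 0.0002 without tumour 4. The other genes of the region gave 0.11, 0.07, -0.05 and 0.07, a mean of 0.05 ± 0.07 (SD, n = 4, exact p = 0.25), which was 0.03 without tumour 1 and 0.09 without tumour 3.

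Set against each other within an array, class I lay below class II in all 4 tumours, with differences of -0.12, -0.19, -0.05 and -0.12. The mean difference was -0.12 ± 0.06 (SD, n = 4, exact p = 0.125, the smallest the design allows). Class II lay above class III in all 4 tumours, by 0.01, 0.11, 0.10 and 0.09 (exact p = 0.125). It also lay above the other genes of the region, by 0.09, 0.09, 0.05 and 0.09 (exact p = 0.125). Class I and class III differed by -0.10, -0.07, 0.05 and -0.03, with no common sign (exact p = 0.375), and class III and the other genes by 0.07, -0.02, -0.05 and 0.003 (exact p = 1). These are 5 of 6 pairs of classes, and the sixth, class I against the other genes, was -0.03, -0.10, 0.0009 and -0.03 (exact p = 0.25). Class II rests on 5 probes and class I on 8, so single probes weigh heavily in both. The low Bat5 probe also lowers the class III mean in tumours 2, 3 and 4, and so moves the differences that involve class III.

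**Figure D2:**
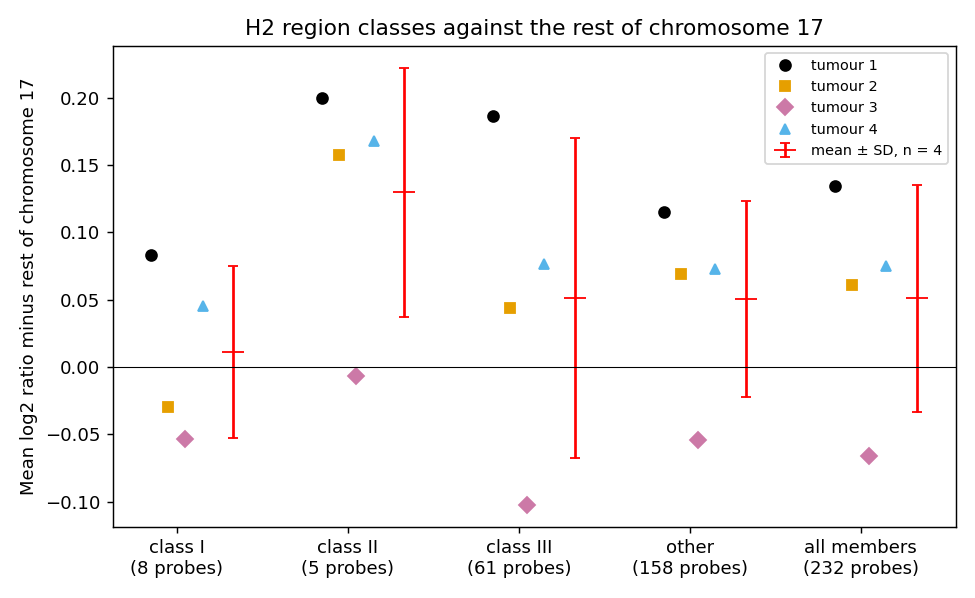
Mean log2 ratio of each class minus the mean of the rest of chromosome 17, 1 symbol per tumour, with the mean and SD over 4 tumours in red. Tumour 1 is highest and tumour 3 lowest in every class, and the class II means of tumours 1, 2 and 4 lie between 0.16 and 0.20.

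Base composition moved with these values. Across all autosomal probes the correlation of a probe's log2 ratio with its G and C share was 0.22, 0.13, -0.05 and 0.13 for tumours 1 to 4. These are correlations over probes of 1 array, which are not replicates. Tumour 1 thus had the highest and tumour 3 the lowest, as for the means of the set. The H2 probes held 37.3% G and C against 36.7% in the rest of the chromosome, and 19.4% of them were shorter than 60 bases against 5.81%. After each array's trend with base composition was removed, the class III difference was 0.16, 0.04, -0.09 and 0.07, and the class II difference 0.20, 0.16, -0.01 and 0.17, so the order of the tumours stayed.

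Along the region the excess of tumour 1 was not even. The tumour 1 segment of 898 probes with a mean of 0.12 starts before the set. Its probes outside the set count in the rest of the chromosome. In windows of 0.5 Mb from the first probe, the members of tumour 1 stood 0.12, 0.15, 0.18, 0.12 and 0.13 above the rest of the chromosome in the first 5 windows. They fell to 0.03 and 0.06 in the next 2, which hold 9 and 20 probes. The last window with a member holds only 1, BC139177, at 0.96 above the rest in tumour 1. In tumour 3 the same 7 windows gave -0.06, -0.02, -0.11, -0.08, -0.11, -0.02 and -0.01. The lowest of these, from 1.0 and 2.0 Mb, were also the windows richest in G and C, at 38.1% and 38.3%. The window from 1.0 Mb holds the low Bat5 probe, 1 of its 47 members, at -2.05 in tumour 3. That probe lowers the window's mean, and the order of the windows without the probe was not tested. In tumour 3 the correlation of log2 ratio with G and C share was -0.02 over the members and 0.17 over the class III probes. Whether base composition underlies the low windows was not tested.

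Among the class II genes, 4 of 5 had a mean above 0 and 0 of 5 passed the limma test described below. H2-Aa and H2-Ab1 encode the 2 chains of the classical class II molecule I-A. H2-Ab1 measured 0.21, 0.18, 0.22 and 0.07 in tumours 1 to 4, a mean of 0.17 ± 0.07 (SD, n = 4). H2-Aa measured 0.15, 0.05, 0.22 and 0.10, a mean of 0.13 ± 0.07 (SD, n = 4). Both were above 0 in every tumour, tumour 3 included, and all values lay within the central 95% of the rest of the chromosome.

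H2-DMa and H2-DMb1 encode the chaperone that loads peptides onto class II molecules. H2-DMa measured 0.44, 0.38, -0.30 and 0.28, so tumour 3 lay opposite to the others. H2-DMb1 measured 0.51, 0.14, -0.08 and 0.38, and its value in tumour 4 was the only class II value outside the limits. Without tumour 1 the mean of H2-DMa moved from 0.20 to 0.12 and that of H2-DMb1 from 0.24 to 0.15. The probe of H2-Eb2, a class II beta chain gene, was below 0 in all 4 tumours at -0.23, -0.07, -0.12 and -0.07. Its mean of -0.12 ± 0.08 (SD, n = 4) was the opposite sign to its 4 class II neighbours.

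Class I genes scattered around 0, with 4 of 7 means above it. H2-Bl measured 0.34, 0.02, -0.08 and 0.08, and its mean of 0.09 ± 0.18 (SD, n = 4) was the highest of the class. Without tumour 1 it was 0.009, below H2-T24 at 0.05 and H2-M10.6 at 0.07. After base composition was allowed for over all 4 tumours, the mean of H2-Bl was 0.03, and H2-M10.6 was highest at 0.17. H2-T24, with a pair of probes, measured 0.17, 0.03, -0.01 and 0.12. H2-M10.6 measured -0.02, 0.04, 0.07 and 0.10, and H2-M9 0.24, 0.14, -0.26 and -0.003. The spread between tumours exceeded the mean of each of these, and was smallest for H2-M10.6 at 0.05 ± 0.05 (SD, n = 4).

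The class I gene with the lowest mean was H2-M10.1, at -0.35, -0.36, 0.17 and -0.09. Once the trend with base composition was removed, its mean moved from -0.16 to -0.03, and H2-M11 was then lowest at -0.09. Genes of the H2-M10 family are known from vomeronasal sensory neurons. H2-M11 measured 0.08, -0.35, -0.05 and -0.04. H2-gs10 measured 0.20, 0.04, -0.31 and -0.07, and its mean of -0.04 ± 0.21 (SD, n = 4) turned to 0.05 without tumour 3. Without tumour 1 the means were -0.09 for H2-M10.1, -0.14 for H2-M11 and -0.12 for H2-gs10, against -0.16, -0.09 and -0.04 with it. None of the 8 class I probes left the central 95% of the rest of the chromosome in any tumour, and no class I probe kept 1 sign in all 4 tumours.

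Genes that process and load peptides lie among the class II genes or, for Tapbp, before the first class II probe. They were looked at as a list of 5, of which 4 had a probe. Psmb8, an interferon-inducible subunit of the immunoproteasome, measured 0.33, 0.27, 0.18 and 0.21. It was above 0 in all 4 tumours, with a mean of 0.25 ± 0.07 (SD, n = 4). Psmb9, its neighbour with the same role, measured 0.32, 0.37, -0.10 and 0.11, so tumour 3 lay on the other side of 0.

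Tap2, a subunit of the transporter that carries peptides into the endoplasmic reticulum, measured 0.07, 0.01, -0.15 and -0.15 over a pair of probes. These disagreed, one with a mean of -0.19 and the other of 0.08. Tapbp, which encodes tapasin and bridges class I molecules to that transporter, measured 0.45, 0.06, -0.06 and 0.06, high only in tumour 1. Without that tumour the mean of Tapbp moved from 0.13 to 0.02 and that of Tap2 from -0.05 to -0.10. The median of the 4 genes was 0.15, against 0.05 over all 123 genes of the set and -3.3e-05 over all genes of the array.

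**Figure D3:**
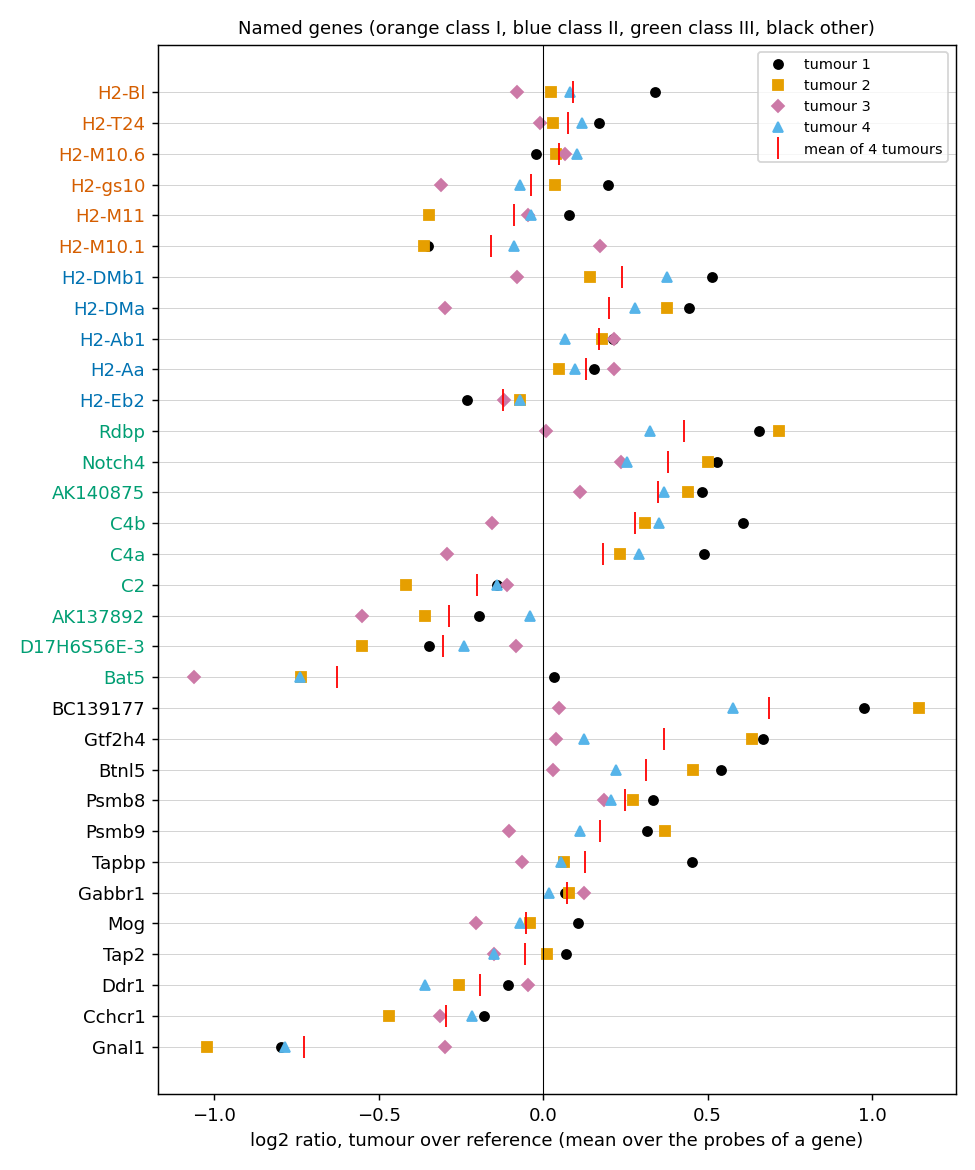
Log2 ratio of the 32 named genes in each tumour, averaged over the probes of a gene, grouped by class, with the mean over 4 tumours in red. H2-Aa, H2-Ab1, Psmb8 and Notch4 lie above 0 in all 4 tumours and H2-Eb2, C2 and Gnal1 below 0.

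Class III held the probe with the lowest mean of the set, in Bat5. The complement genes of the class with a probe were C4b, C4a and C2. C4b measured 0.61, 0.31, -0.16 and 0.35 and C4a 0.49, 0.24, -0.29 and 0.29, both high in tumours 1, 2 and 4 and below 0 in tumour 3. Without tumour 1 their means moved from 0.28 to 0.17 and from 0.18 to 0.08. These are near-identical gene copies, and each has 1 probe, of 51 and 54 bases. At 45.1% and 40.7% G and C, both probes lie above the average of the set. Once the trend with base composition was removed, their means moved from 0.28 to 0.22 and from 0.18 to 0.13.

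C2, a complement protease, was measured by 3 probes. Its first probe was low throughout, at -0.67, -0.97, -0.29 and -0.60. The next, 6822 bases on, measured 0.01, -0.04, -0.06 and 0.06, and the last 0.24, -0.24, 0.01 and 0.11. The drop was therefore limited to 1 of the gene's 3 probes, and the gene's own mean was -0.20 ± 0.14 (SD, n = 4).

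Bat5, now Abhd16a, encodes a phospholipase of the alpha/beta hydrolase fold. Its low probe gave the most extreme values of the whole set, with -0.03, -1.55, -2.05 and -1.27 for tumours 1 to 4. On the linear intensity scale the processed tumour signals were 800, 303, 128 and 372, and the reference signals 835, 883, 528 and 889. The 3 low ratios therefore came with low tumour signals, while in tumour 1 both channels were alike. The second Bat5 probe, 7853 bases on, measured 0.10, 0.07, -0.07 and -0.20. The nearest probe on the other side, Ly6g6f at 8608 bases, measured 0.13, -0.29, -0.24 and 0.02.

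Gnal1, now Gnl1, encodes a GTP-binding protein and is listed with the other genes of the region. Its single probe measured -0.80, -1.02, -0.30 and -0.79, below 0 in all 4 tumours. Prr3, 5919 bases before it, measured 0.39, 0.27, -0.20 and 0.22, and the next probe, 6819 bases after it, 0.25, 0.39, -0.21 and 0.16. In tumours 1, 2 and 4 the low Gnal1 value thus stood between values above 0. Of the 6 leading probes it is the poorest in G and C, and after base composition was allowed for its mean moved from -0.73 to -0.62.

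Genes with high probes were spread over the region. Notch4, a receptor of endothelial cells, has a pair of probes. The first measured 0.80, 0.71, 0.21 and 0.31 and the second 0.26, 0.29, 0.27 and 0.20, so both were above 0 in all 4 tumours. As a gene it averaged 0.38 ± 0.16 (SD, n = 4). Rdbp, now Nelfe, a subunit of the negative elongation factor of RNA polymerase II, measured 0.66, 0.72, 0.01 and 0.33, and lies 14531 bases from the low C2 probe.

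BC139177, the last member of the set, measured 0.98, 1.14, 0.05 and 0.58, the highest mean of any gene here at 0.69 ± 0.49 (SD, n = 4). The unnamed probes beside it, 7409 bases before and 18487 bases after, were low instead, at -0.54, -0.67, -0.10 and -0.28 and at -0.44, -0.65, -0.16 and -0.29. Gtf2h4, a subunit of the repair and transcription factor TFIIH, measured 0.67, 0.64, 0.04 and 0.12. Btnl5, a butyrophilin-like gene that RefSeq now lists as a pseudogene, measured 0.54, 0.46, 0.03 and 0.22 over a pair of probes. These had means of 0.47 and 0.16, and 1 of them was -0.03 in tumour 3. In BC139177, Gtf2h4 and Btnl5, tumours 1 and 2 were the highest and tumour 3 the lowest.

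**Figure D4:**
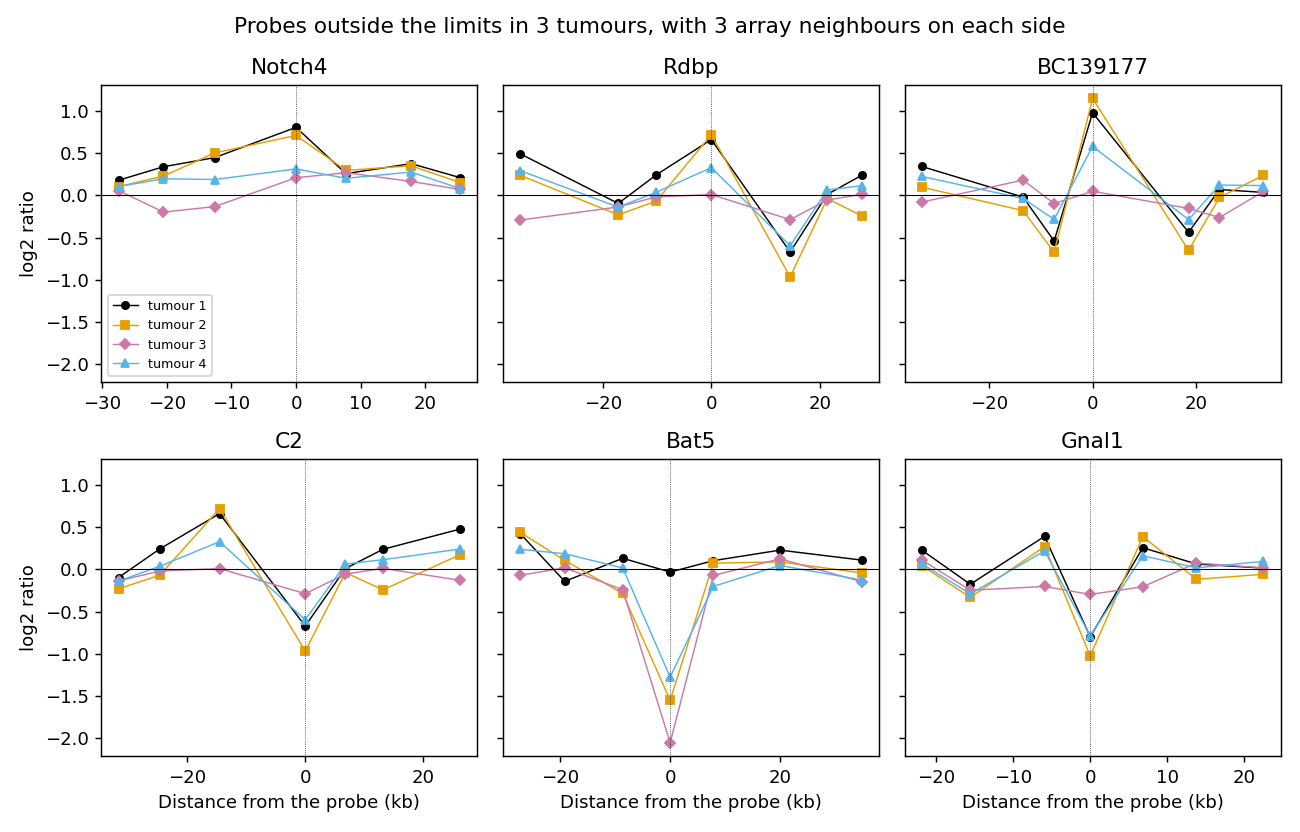
Log2 ratio of 6 probes that left the limits in 3 tumours (at distance 0) and of the 3 array probes on each side, against distance in kb. Only at Notch4 do both adjacent probes share its sign in tumours 1, 2 and 4, and tumour 3 stays between -0.30 and 0.27 except at Bat5.

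Further low genes were D17H6S56E-3 (now Vwa7) at -0.35, -0.55, -0.08 and -0.24, and the transcript AK137892 at -0.20, -0.36, -0.55 and -0.04. Cchcr1, a centrosomal coiled-coil protein gene linked to psoriasis, measured -0.18, -0.47, -0.31 and -0.22. Ddr1, a collagen receptor kinase, measured -0.11, -0.26, -0.05 and -0.36 over a pair of probes. These had means of -0.30 and -0.08, and 1 of them was above 0 in tumour 1, at 0.06. Averaged over the probes of a gene, all 4 genes were below 0 in each tumour. The transcript AK140875 was above 0 in each, at 0.48, 0.44, 0.11 and 0.37. At the far end of the region, Mog, a myelin gene, measured 0.11, -0.04, -0.20 and -0.07, and Gabbr1, a GABA receptor subunit, 0.07, 0.08, 0.12 and 0.02. The mean of Mog was -0.05 with tumour 1 and -0.11 without it.

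No probe of the set deviated in all 4 tumours. A probe was counted as deviating when its ratio fell outside the central 95% of the rest of chromosome 17 on the same side. The limits were -0.59 and 0.53 in tumour 1, -0.75 and 0.56 in tumour 2, -0.35 and 0.34 in tumour 3, and -0.43 and 0.30 in tumour 4. In all 4 tumours 0 of 232 members met this, against 23 of the 6316 other probes (0.364%) and 0.430% of the other autosomal probes. The 23 were 22 low (0.348%) and 1 high (0.0158%). No test was made of this count.

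In at least 3 tumours 6 members met it (2.59%, against 1.80% in the rest), and they are the 6 probes printed first. Notch4, Rdbp and BC139177 were high (1.29% of members, 0.649% of the rest), and C2, Bat5 and Gnal1 low (1.29%, against 1.16%). In 5 of the 6 the tumour within its limits was tumour 3, where C2 at -0.29 and Gnal1 at -0.30 stopped short of the limit of -0.35. For Bat5 it was tumour 1. Without tumour 3 the count over the other tumours was 5 (1.57% in the rest), without tumour 1 it was 1 (0.507% in the rest), and it was 0 without tumour 2 (0.427% in the rest) and without tumour 4 (0.396%).

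In at least 1 tumour 36 members left the limits (15.5%, against 12.9% in the rest), with 27 high (11.6%, against 7.27%) and 11 low (4.74%, against 6.05%). Class III held 16 of these 36 among its 61 probes, class II 1 among 5 and class I 0 among 8. The members Rxrb and Ier3 left the limits on opposite sides in different tumours and count in both. Rxrb, a retinoid X receptor, measured 0.93, 0.04, -0.82 and 0.24, and Ier3, an early response gene, 0.82, 0.29, -0.76 and 0.56. Both were chosen after their values were seen.

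Counted by tumour, members left the upper limit more often than the rest in tumours 1, 2 and 4 and not at all in tumour 3. Tumours 1 and 4 had 17 such members each (7.33%), tumour 2 had 8 (3.45%) and tumour 3 had 0, against 2.5% in the rest by construction. Below the lower limit lay 2, 5, 7 and 3 members in tumours 1 to 4. Above 0 in all 4 tumours were 44 members (19.0%, against 18.1% in the rest) and below 0 in all 4 were 29 (12.5%, against 16.1%), so most members changed sign between tumours.

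**Figure D5:**
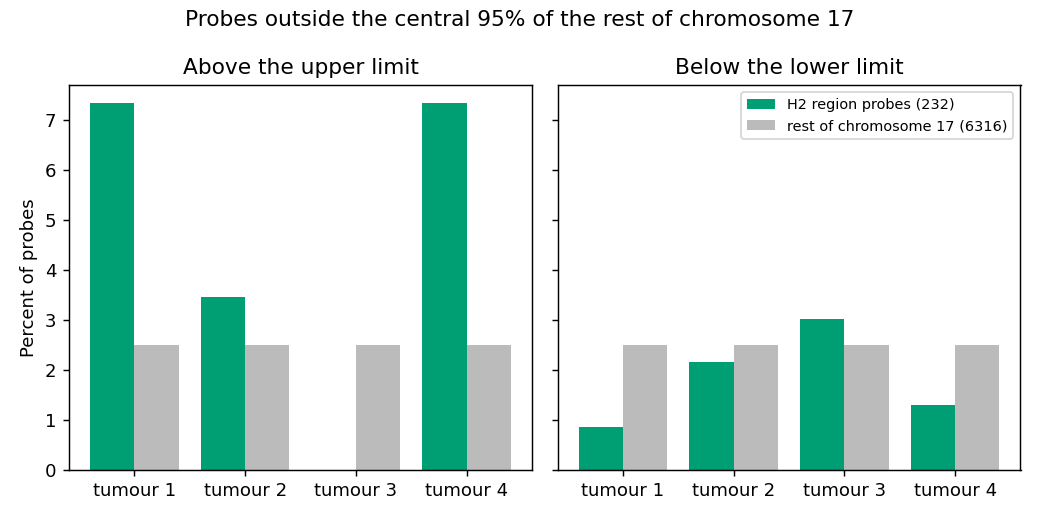
Percent of the 232 H2 region probes and of the 6316 other chromosome 17 probes above the upper limit (left) and below the lower limit (right) of the central 95%, by tumour. The H2 bars reach 7.33% above the limit in tumours 1 and 4 and are 0 in tumour 3.

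A test of the mean over tumours against 0 was run with limma on all genes and all probes of the array, with Benjamini-Hochberg adjustment. By gene name, 0 of 123 members passed an adjusted p of 0.05 (0.144% of all genes passed, 30 of 20796, all lower). The lowest adjusted p was 0.104, for Gnal1. At an unadjusted p under 0.05 there were 35 members, 22 higher and 13 lower, which is 28.5% against 25.1% of all genes. Over all genes 10.3% were higher and 14.8% lower at that threshold. The balance among members turned without tumour 1, to 8 higher and 14 lower (17.9%, against 13.4% of all genes). Of all genes 4.13% were then higher and 9.28% lower. Without tumour 3 members were 43 higher and 13 lower (45.5%, against 35.9%), and of all genes 18.2% were higher and 17.8% lower. Without tumour 2 there were 17 members (13.8%, against 11.6% of all genes) and without tumour 4 there were 19 (15.4%, against 17.8%). With all 4 tumours they were 0 of 7 genes in class I, 3 of 5 in class II, 17 of 37 in class III and 15 of 74 among the rest. The median gene was 0.03 in class I, 0.17 in class II, 0.06 in class III and 0.05 among the other genes.

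The genes next in order after Gnal1 were Notch4 and Psmb8, both with an adjusted p of 0.106 in limma. The mean of Gnal1 was -0.73 with a standard error of 0.12, of Notch4 0.38 with 0.07 and of Psmb8 0.25 with 0.05. H2-Ab1 had an adjusted p of 0.136 and H2-Eb2 of 0.191. None of these passed, and a miss in 4 arrays does not show that a ratio is 0. In data simulated with normal noise of 1 size per array, alike for all features, the test recovered 71% of changes of 0.5 and 100% of changes of 1. The spread between tumours differs from probe to probe here, so these shares do not give the test's power for this set. The low Bat5 probe, at a mean of -1.23, missed with an adjusted p of 0.075 in limma.

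By probe, 1 of 232 members passed (0.727% of all probes passed, 1238 of 170305), the Gnal1 probe with a mean of -0.73, a standard error of 0.12 and a limma adjusted p of 0.0487. The C2 probe followed with -0.63, a standard error of 0.11 and an adjusted p of 0.0566. At an unadjusted p under 0.05 there were 55 members, 23.7% against 28.8% of all probes. That number was 33 without tumour 1 (14.2%, against 16.2% of all probes) and 24 without tumour 2 (10.3%, against 13.5%). It was 97 without tumour 3 (41.8%, against 41.6%) and 36 without tumour 4 (15.5%, against 20.3%). The single call depended on the arrays used. It was lost without any 1 of tumours 1, 2 and 4, with limma adjusted p of 0.0894 without tumour 1, 0.289 without tumour 2 and 0.199 without tumour 4. The shares of all probes passing were then 0.450%, 0.0804% and 0.109%. Without tumour 1 the Bat5 probe passed in its place. When the arrays of tumours 1 and 4 were averaged as 1 slide, 0 members passed (0.285% of all probes), and 36 had an unadjusted p under 0.05 (15.5%, against 21.1% of all probes).

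Counts rose with another background correction and without tumour 3. With normexp 17 of 123 genes passed (10.8% of all genes), among them Gnal1 at -0.74, BC139177 at 0.99, Rdbp at 0.60, Notch4 at 0.55, C4b at 0.42, Psmb8 at 0.39 and H2-DMb1 at 0.35. Without tumour 3, 3 genes passed (1.86% of all genes), Gnal1 at -0.87, BC139177 at 0.90 and AK140875 at 0.43. By probe the counts were 50 with normexp (23.9% of all probes) and 62 without tumour 3 (22.4%). The whole array's count rose with them in each case.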

How the data were processed

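Genomic DNA of 4 liver tumours was measured on 2-colour Agilent arrays. The deposited ratios are log10 of red over green, detrended, background-subtracted and dye-scaled per the file headers. Processed and raw channel signals are intensity values that the authors deposited. The submitters' processing notes name Agilent Feature Extraction 10.7.3.1. Ratios were turned to log2, control and outlier spots left out, spots of a probe averaged and each array centred on its autosomal median. Exons and introns on mm9 were not analysed here, and RefSeq served for names only: 81 of 123 names are current, 14 older and 28 unmatched.

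Tumours formed 1 group. Means were tested with limma 3.58.1 in R 4.3.3 (Benjamini-Hochberg over the whole array) and class differences with exact sign-flip tests. Named were 13 of 24 fixed genes with a probe (none for H2-K1, H2-D1, H2-Eb1, H2-Oa, Tap1, Cfb, Tnf, Lta, Cyp21a1, Hspa1b and Pou5f1), and the 3 highest and 3 lowest of each class, 32 in all. The members and gene lists were chosen with earlier results of these data known. Alternatives were normexp (offset 50), mode centring, the deposited value table (log10 ratios), a background filter, GC correction, each tumour left out, other limits and penalties, and a flank of 50 kb. The number of arrays limits the precision.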

Additional observations from a re-analysis of the deposited data

Results flagged for a closer look

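Of 40 values looked at over the 4 tumours (the 32 named genes, 3 single probes of genes with several probes and 5 class differences), 1 had a tumour far from the other 3. C2 as a gene measured -0.42 in tumour 2, against -0.14, -0.11 and -0.14 in tumours 1, 3 and 4. Chance sets apart about 1 in 20 such groups.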

How the results depend on the processing

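The class II, class III, other-gene and whole-set differences kept their direction under all alternatives run. Their sign-flip test cannot reach 0.05 with 4 tumours or fewer, so it says nothing of stability. With 1 tumour left out they ranged from 0.11 to 0.18, 0.006 to 0.10, 0.029 to 0.086 and 0.023 to 0.090, lowest without tumour 1 and highest without tumour 3. No segment was called at either other penalty. The class I difference ranged from -0.013 to 0.033 with 1 tumour left out, and was negative only without tumour 1. Members that deviated in all tumours numbered 0 to 5 with 1 tumour left out, 0 under the other limits, and 6 when at least 3 tumours sufficed, a rule chosen after seeing the data. Genes past limma numbered 17 with normexp and 0 to 3 with 1 tumour left out, probes 50 with normexp, 0 to 62 with 1 tumour left out and 0 with the arrays of 1 slide averaged, also chosen after seeing the data. The cause was not tested. Of 352 values of named genes, 327 kept side and direction, 13 passed the threshold and 12 reversed. With 50 kb flanks the reversals were AK137892 0.11, AK140875 -0.069, C2 0.057, Gtf2h4 -0.049, H2-Eb2 0.025, H2-M10.6 -0.026, H2-T24 -0.024, H2-gs10 0.015, Mog 0.038 and Tap2 0.15. A flank mixes neighbouring genes by construction. H2-M10.6 was -0.11 with normexp and H2-gs10 ranged from -0.12 to 0.054 with 1 tumour left out, reversing without tumour 3. The slide as a random block could not be fitted with 3 slides. No paired analysis was possible because all tumours form 1 group.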

Other observations

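Of the 148 unnamed probes and 1 excluded probe in the same stretch, 2 unnamed probes were below the lower limit in all 4 tumours. The probe at chr17:37726221-37726280 (mm9) measured -1.17, -0.98, -0.72 and -1.14 in tumours 1 to 4, and that at chr17:37831203-37831262 measured -0.82, -1.25, -1.20 and -1.06. Without a name on the array they are not members, and they count among the 22 low probes of the rest of the chromosome.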
